A study of Mus musculus with 6 samples.

Results

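The intervals described here are places in the mouse genome where E2F1 was called bound at a distance from genes. Overlapping peaks (1 bp or more) of the 2 E2F1 peak lists were merged into 8725 intervals, of which 8713 lay on assembled chromosomes. An interval was kept when it overlapped no protein-coding gene and lay more than 1000 bp from the boundary of every gene in the RefSeq table of assembly GRCm38.p6. The rule used position only and kept 359 of 8713 intervals, or 4.12% (Wilson 95% interval 3.72 to 4.56%). Of these 359, 67 (18.7%) lay inside a long non-coding RNA gene or another gene that codes for no protein, more than 1000 bp from its ends, so the word intergenic holds for the other 292 and the whole set is called intervals away from genes. The remaining 8354 intervals comprised 7003 at boundaries of protein-coding genes, 955 inside protein-coding genes and 396 at boundaries of other genes.

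The peaks came from sequencing of DNA precipitated with E2F1 (ChIP-seq) in NIH/3T3, an established line of mouse fibroblasts. In the E2F1 group (2 libraries) the cells carried a stably integrated construct that expresses E2F1 under doxycycline, and in the EV group (2 libraries) they carried an empty vector. Both groups were starved in low serum for 48 hours, which puts the cells in a resting state, and were then given doxycycline for 12 hours. The protocol gives 500 ng/ml doxycycline, while the names of the peak lists carry 200 without a unit. The design text asks which sites E2F1 occupies when resting cells re-enter the cell cycle. Whether a line was 1 clone or a pool, which antibody was used and whether it could tell induced from endogenous E2F1 are not given in the sources used here. The labels do not say that the replicates came from separate cultures, so differences between libraries measure only the spread between these samples. The 2 input samples of EV cells were not analysed here.

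E2F1 is a transcription factor that binds DNA together with a DP partner protein and is held in check by the retinoblastoma protein until cells commit to S phase. Its known targets are mainly promoters of genes for DNA replication and the cell cycle, and it is typically found close to transcription start sites. Binding away from genes can fall in enhancers, in promoters of unannotated or long primary transcripts, such as those of microRNAs, or in repeated sequence where peak calling is difficult. A microRNA (miRNA) is a short RNA that lowers the output of messenger RNAs, which it recognises mainly through its seed, bases 2 to 8.

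Sequence of the intervals themselves was not analysed here. Mature miRNAs encoded within 50 kb of such an interval are printed instead, because miRNA genes lay beside several of the intervals with high enrichment. They are the let-7 family members near these intervals, and 4 further miRNAs whose interval lay upstream with high folds, all chosen after the values were seen. Sequences are from RefSeq, GRCm38.p6, 5′ to 3′, with the seed in capitals. The first 6, all of the let-7 family, had 1 seed in common, and so did both miR-30 members.
mmu-let-7a-5p: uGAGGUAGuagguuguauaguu
mmu-let-7f-5p: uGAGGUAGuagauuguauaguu
mmu-let-7d-5p: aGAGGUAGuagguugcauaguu
mmu-let-7i-5p: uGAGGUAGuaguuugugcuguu
mmu-let-7c-5p: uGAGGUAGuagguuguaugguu
mmu-let-7b-5p: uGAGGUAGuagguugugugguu
mmu-miR-30a-5p: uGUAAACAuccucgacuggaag
mmu-miR-30c-5p: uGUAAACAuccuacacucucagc
mmu-miR-9-5p: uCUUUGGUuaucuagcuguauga
mmu-miR-16-5p: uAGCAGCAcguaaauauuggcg

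The only interval that reached into a promoter window of the RefSeq table (250 bases before to 50 after a start, 32851 windows in all) lay in Gm33616, a non-coding gene on the minus strand of chromosome 9. The table holds a second window of this gene at the gene boundary, and the window reached lies at a start inside the gene, 2649 bp or more from its ends. The window spans chr9:106418301-106418600, and the 126 bases in capitals, chr9:106418475-106418600, belong to the interval.
Gm33616 promoter: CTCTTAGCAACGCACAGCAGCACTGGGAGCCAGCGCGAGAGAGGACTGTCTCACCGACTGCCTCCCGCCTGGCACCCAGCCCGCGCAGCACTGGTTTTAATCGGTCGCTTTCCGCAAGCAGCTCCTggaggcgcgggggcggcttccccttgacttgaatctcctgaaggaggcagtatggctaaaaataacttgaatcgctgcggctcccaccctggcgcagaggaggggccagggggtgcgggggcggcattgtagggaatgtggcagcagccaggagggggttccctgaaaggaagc
This interval had a fold of 6.49 in E2F1 replicate 1 and was listed in no other library. The window held 63.3% G and C, against a median of 52.7% over all promoter windows, and 18 CpG dinucleotides against a median of 7. The E2F words TTTCCCGC, TTTCGCGC, TTTGCCGC and TTTGGCGC, read on both strands, occurred 0 times in it and in 744 (2.26%) of the 32851 windows.

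Each library had its own deposited peak list. On assembled chromosomes the lists held 7828 and 8018 peaks in E2F1 replicates 1 and 2, against 66 and 338 in EV replicates 1 and 2. For each peak the authors give a fold enrichment, the number of reads piled up at the summit (plus 1) over the local background (plus 1), and a Poisson p-value. Pileup and local background were solved from these values. The lowest background in a list is its genome-wide background, the only measure of depth at hand, and was 1.85 and 1.86 reads in the E2F1 libraries and 2.20 and 1.18 reads in the EV libraries. Every list ended at a −log10 p of 10.0, so an interval not listed in a library had no peak past that limit, which does not show that reads were absent.

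Peaks away from genes were present in all 4 libraries, and they made up a small share of the E2F1 lists and most of the EV lists. E2F1 replicates 1 and 2 had 290 and 266 such peaks, and EV replicates 1 and 2 had 45 and 224. The E2F1 libraries were close to each other, while the EV libraries differed several-fold, with EV replicate 2 not far below E2F1. The means were 278 ± 17.0 (SD, n = 2) and 134.5 ± 127 (SD, n = 2), a log2 difference of 1.45 in the means of log2(number + 1). By exact permutation of the 4 libraries the two-sided p was 0.333, which is also the lowest value that 2 against 2 allow, so this design cannot reach 0.05. Without EV replicate 1 the difference was 0.31, and without EV replicate 2 it was 2.60. At more than 5000 bp from every gene boundary the order of the libraries changed, with 161 and 156 peaks in E2F1 and 34 and 196 in EV.

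As a share of the list the order was the other way round. Peaks away from genes were 3.70% (3.31 to 4.15%) and 3.32% (2.95 to 3.73%) of the E2F1 lists, and 68.2% (56.2 to 78.2%) and 66.3% (61.1 to 71.1%) of the EV lists, with Wilson 95% intervals that cover counting error only. The means were 3.51 ± 0.27% (SD, n = 2) and 67.2 ± 1.35% (SD, n = 2). The groups did not overlap, and the p by exact permutation was again 0.333. Peaks away from genes had median folds of 3.59 and 5.09 in the EV lists and 6.96 and 7.45 in the E2F1 lists. The lists differ in genome-wide background, so each median is set beside that of its own list. It was lower in both E2F1 lists (list medians 9.19 and 11.3) and in EV replicate 1 (3.86). In EV replicate 2 it was higher (4.88).

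**Figure D1:**
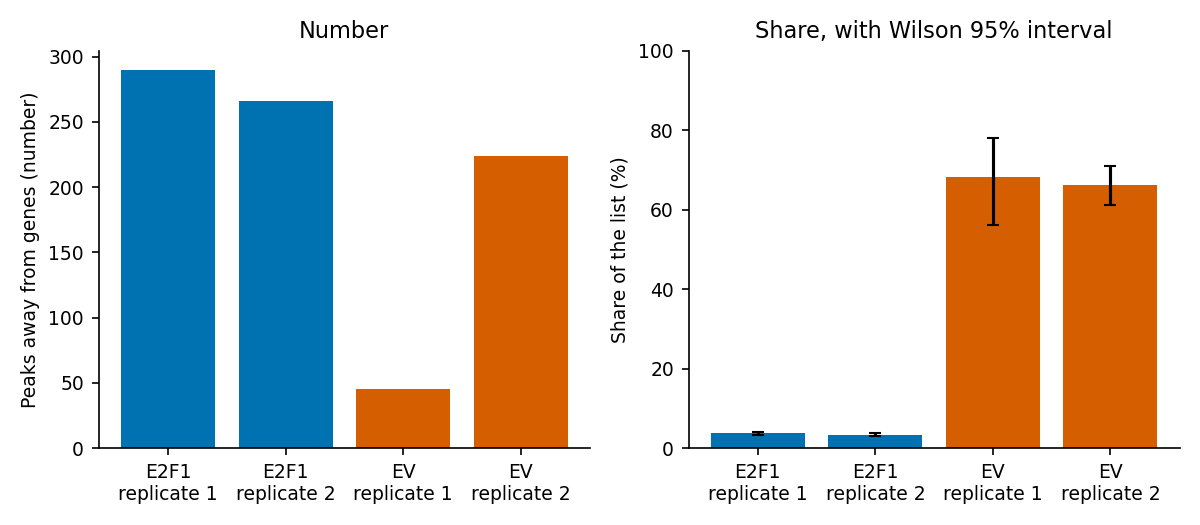
Number of peaks away from genes (left, bars) and their share of each library's list in percent (right, bars with Wilson 95% intervals) in the 2 E2F1 and 2 EV libraries. The numbers were 290, 266, 45 and 224, while the shares were below 5% in both E2F1 libraries and above 60% in both EV libraries.

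A minority of these EV peaks overlapped E2F1 intervals away from genes, and the share differed between the EV libraries. Of the 45 in EV replicate 1, 14 (31.1%) overlapped one of the 359 E2F1 intervals, and of the 224 in EV replicate 2, 11 (4.91%) did. Seen from the E2F1 side, 20 of 359 intervals (5.57%, 3.64 to 8.45%) were overlapped by an EV peak, against 0.402% of all intervals on assembled chromosomes. The other classes held 6 of 7003 at protein-coding boundaries, 6 of 955 inside protein-coding genes and 3 of 396 at other boundaries, so 20 of the 35 intervals overlapped by EV were away from genes. EV replicate 1 overlapped 12 intervals, EV replicate 2 overlapped 12, and 4 were common to both.

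About 1 in 2 intervals away from genes was listed in both E2F1 replicates, a smaller share than in any other class. Replicate 1 had a peak in 284 of them and replicate 2 in 256, and 181 of 359 (50.4%, 45.3 to 55.6%) had a peak in both, against 80.4% of all intervals on assembled chromosomes. The share was 83.6% at protein-coding boundaries, 71.1% inside protein-coding genes and 73.0% at other gene boundaries. It was alike for intervals between genes (149 of 292, 51.0%) and for those inside non-coding genes (32 of 67, 47.8%). Replicate 1 alone listed 103 and replicate 2 alone listed 75. Of those in 1 replicate, 101 of 103 (98.1%) and all 75 of 75 had a fold below the median of their list, close to the 97.1% and 95.7% over all intervals listed in that replicate alone.

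**Figure D2:**
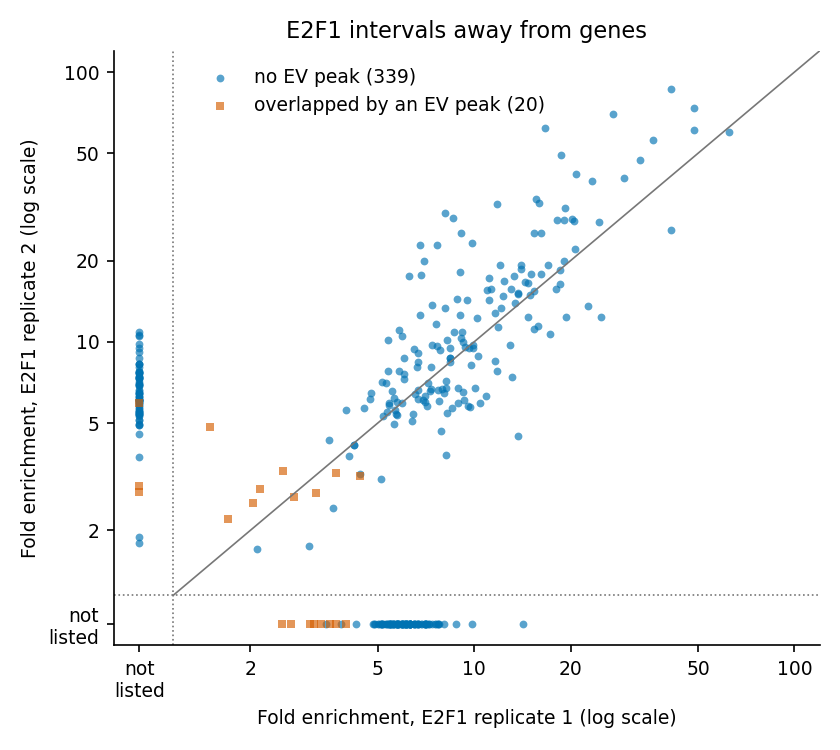
Authors' fold enrichment of each of the 359 intervals in E2F1 replicate 1 (x axis, log scale) and replicate 2 (y axis, log scale), with intervals listed in 1 replicate drawn in the margin of the other and the line of equal folds in grey. Circles are intervals with no EV peak (339) and squares are those overlapped by an EV peak (20), all of which had folds below 6.

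Median fold and median width were below those of the other intervals in both replicates. In replicate 1 the median fold was 6.96 (quartiles 5.65 and 9.97), against 9.35 (6.54 and 14.2) for all other intervals, a log2 difference of medians of -0.43. In replicate 2 it was 7.54 (5.93 and 13.4) against 11.5 (7.42 and 19.1), a difference of -0.61. Both replicates had the same direction, and the ranges between quartiles overlapped in each. Restricting both sides to intervals listed in both replicates reduced the mean difference from -0.52 to -0.31, an alternative chosen after the data were seen. Median widths were 707.5 bp against 948 bp in replicate 1 and 585 bp against 822 bp in replicate 2.

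A minority reached the upper part of their lists. In replicate 1, 84 of 284 (29.6%) had a fold at or above the list median, against 50.3% of all intervals on assembled chromosomes with a peak there. Replicate 2 had 76 of 256 (29.7%), against 50.4%. In both replicates at once there were 61 of 359 (17.0%), against 35.4%. Of these 61 none had an EV peak (0 of 61, with an upper Wilson bound of 5.92%), beside 0.402% of all intervals. Inside a non-coding gene lay 10 of the 61. Among the top 100 folds of each list, 5 were away from genes in replicate 1 and 5 in replicate 2. These small counts were near their 3.70% and 3.32% of the peaks. Over the 181 intervals in both lists the folds of the replicates had a Spearman rho of 0.79, and 0.76 over the 172 without an EV peak, beside 0.70 over 6820 other intervals. These correlations are across regions of the same 2 libraries and are given as a description.

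**Figure D3:**
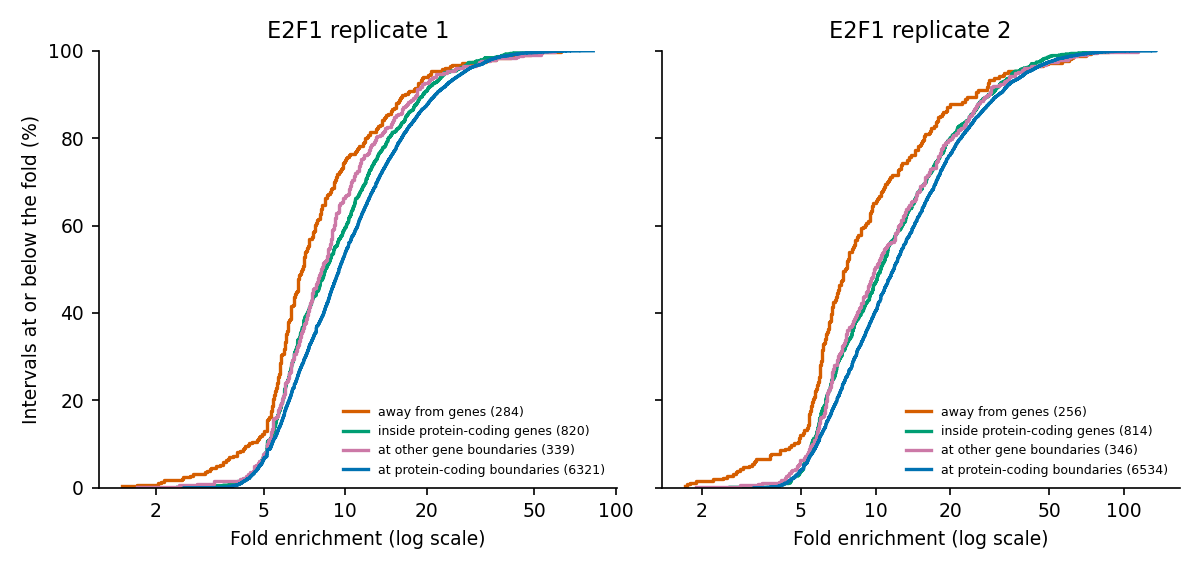
Cumulative share of intervals (y axis, percent) at or below each authors' fold enrichment (x axis, log scale) in E2F1 replicates 1 and 2, by position class. The curve of intervals away from genes lies to the left of the others over most of its range in both replicates, with medians of 6.96 and 7.54.

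The interval with the highest mean fold was chr1:86486705-86488529, in a gap between genes 38028 bp upstream of the start of Ptma, which encodes the acidic nuclear protein prothymosin alpha linked to proliferation. Its fold was 41.2 in replicate 1, from 159 reads, and 86.4 in replicate 2, from 330 reads. The pseudogene Rpl30-ps6 was the nearest gene, at 12685 bp. It belonged to a run of 4 intervals spread over 89026 bp. The next one, at chr1:86503721-86505256 and 21301 bp from Ptma, had folds of 12.0 and 19.3, and the one at 3324 bp had folds of 8.13 and 13.4. Both replicates thus listed 3 places upstream of Ptma, and Ptma itself had an E2F1 interval at its boundary.

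The next of the 10 highest that had a protein-coding gene as nearest gene lay on both sides of such genes. At chr15:103304429-103306766, 1467 bp past the end of Gpr84, which encodes a receptor for medium-chain fatty acids, the folds were 48.7 and 73.7. On the X chromosome, chrX:7714110-7714667 lay 3849 bp past the end of Gpkow, the gene of a splicing-related protein, with folds of 62.5 and 59.9. This was the highest fold of all 359 in replicate 1, ranking 10 in its list, in a peak of only 558 bp. Neither Gpr84 nor Gpkow had an E2F1 interval at its own boundary. At chr12:8640418-8641421, 32671 bp upstream of Pum2, the gene of an RNA-binding repressor, the folds were 27.1 and 70.0. The pileups there were 141 and 199 reads, on local backgrounds of 2.29 and 1.00 times genome-wide. At chr9:77750006-77751406, 3129 bp from Gclc, which encodes the catalytic subunit of the enzyme that limits glutathione synthesis, the folds were 36.2 and 56.0.

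Of the rest of the 10, chr9:72132622-72133831 lay 20729 bp upstream of Tcf12, the gene of a basic helix-loop-helix transcription factor, with folds of 33.0 and 47.2. The interval chr11:120304301-120306226 lay 12004 bp past the end of Bahcc1, a chromatin protein gene, with folds of 29.3 and 40.4. The remaining 3 of the 10 lay beside miRNA genes and are described with them. The intervals past Gpr84 and Bahcc1 also had miRNA genes within 50 kb, the nearest listed being Mir148b at 19208 bp and Mir6935 at 41124 bp.

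Of the 1005 miRNA genes in the RefSeq sequence table, 51 (5.07%) had an interval away from genes within 50 kb, while 531 (52.8%) had an E2F1 interval of another class within that distance. Counted over intervals, 54 of 359 (15.0%) had one of these 1005 genes within 50 kb, against 11.0% of all intervals on assembled chromosomes. The sequence table lacks some annotated miRNA genes, so intervals near a miRNA gene are undercounted. Mir30d, for example, is not in it, although an interval with folds of 41.1 and 25.9 lay 20638 bp away. For 31 of the 51 genes (60.8%) the nearest of these intervals lay upstream. For 33 (64.7%) at least 1 of these intervals was listed in both replicates. Neither share was computed for miRNA genes near other E2F1 intervals, so no pattern is drawn from them. The miRNA genes named in what follows were chosen after their values were seen. Among the 11 let-7 genes the number was 7, which was noticed after the values were seen and was not tested. The let-7 miRNAs are known for lowering growth-promoting transcripts in differentiated cells. Since neighbouring miRNAs share intervals, the 7 genes rested on 7 intervals at 4 loci.

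The strongest of these, chr13:48545060-48547965, lay 6788 bp upstream of Mirlet7a-1, 7143 bp upstream of Mirlet7f-1 and 8946 bp upstream of Mirlet7d, which are clustered on the minus strand. Its folds were 48.7 in replicate 1 and 60.8 in replicate 2, from 198 and 201 reads. A second interval, 13991 bp upstream of Mirlet7a-1, was listed in replicate 2 only with a fold of 6.92. Upstream of Mirlet7c-2 and Mirlet7b, at 33416 and 34132 bp, the interval chr15:85668900-85673187 had folds of 18.6 and 49.4 and was 4288 bp wide. Its pileups were 154 and 156 reads, on local backgrounds of 3.96 and 1.17 times genome-wide. This interval was the last in a run of 4 over 20166 bp, whose other members had folds of 6.54 to 8.86 in replicate 1. Mirlet7i had an interval 1723 bp downstream with folds of 5.97 and 5.95. The interval 44776 bp downstream of Mirlet7c-1 was listed in replicate 1 only, with a fold of 6.32. Another miRNA gene, Mir125b-2, was nearer to that interval, at 1439 bp. Both let-7 clusters thus had an upstream interval with high folds in both replicates, whereas the intervals beside the single let-7 genes had folds near the lower end of the lists. The other 4 let-7 genes were 239548 bp or farther from any such interval.

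Other miRNA loci had the same kind of neighbour. The interval chr1:23255879-23257119 lay 15150 bp upstream of Mir30a and 34582 bp upstream of Mir30c-2, whose seeds are the same, and had folds of 16.6 and 61.9. This gap between the replicates went with local backgrounds of 4.38 and 1.00 times genome-wide, since the pileups were 150 and 176 reads. Inside the long non-coding RNA gene C130071C03Rik, chr13:83730670-83731713 lay 7101 bp upstream of Mir9-2, a neural miRNA, with folds of 20.8 and 42.0. Inside Dleu2, the host transcript of Mir16-1, chr14:61647297-61649436 lay 15325 bp upstream of the miRNA with folds of 18.6 and 18.4. The miR-16 family is known for lowering cyclins of G1 phase. Between Mir181c and Mir23a on chromosome 8, a run of 5 intervals filled 20248 bp. The highest of the run, chr8:84191946-84193051, had folds of 16.1 and 17.8. All 5 lay upstream of the Mir23a, Mir27a and Mir24-2 cluster, and the nearest, 4791 bp from Mir23a, was listed in replicate 2 only with a fold of 5.97. The next, at 6885 bp, had folds of 15.3 and 11.2. All 5 also lay upstream of Mir181d, on the opposite strand at the other end of the run. The nearest to Mir181d, at 4693 bp, had folds of 9.23 and 6.54. Mir155, known from inflammation, had an interval 10450 bp upstream with folds of 8.22 and 10.1, while Mir22 had one in replicate 1 only, with a fold of 6.999. Mir31 had a pair upstream, one in replicate 1 only with a fold of 6.32 and one at 26622 bp with folds of 6.98 and 19.97. The pair upstream of Mir29a was listed in replicate 1 only, with folds of 5.73 and 6.09.

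Cell cycle genes and genes of the early response to serum were looked up in 4 lists, by the nearest protein-coding gene. An interval away from genes had its nearest protein-coding gene in one of the lists in 12 of 359 cases (3.34%), against 1.62% of all intervals on assembled chromosomes. Most of these came from 1 list. The 30 fibroblast and immediate early genes accounted for 8 (2.23%, against 0.37% of the other intervals). These 8 rested on 6 genes of the list, namely Egr3, Fos, Fosb, Jun, Junb and Klf4. The rest of the list, among them Egr1, Col1a1 and Vim, had none. The 42 genes of G1/S and DNA replication accounted for 3 (0.84% against 0.49%), the 28 RB/E2F network genes for 1 (0.28% against 0.36%) and the 31 G2/M genes for 0 (against 0.32%). Naming the nearest gene is a label of position and does not assign a target.

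The cell cycle entries were few. Ccnd1, which encodes cyclin D1, the partner of the kinases that act first on the retinoblastoma protein, had a pair of intervals beside it on chromosome 7. The one 1348 bp away, chr7:144941179-144941925, had folds of 7.63 and 9.63, and the one 2375 bp away, chr7:144942206-144943732, had 15.4 and 25.4. No E2F1 interval lay at the Ccnd1 boundary itself. At 11837 bp past the end of Ccne1, the cyclin E1 gene, chr7:38084801-38086147 had folds of 12.2 and 13.3. Beside Cdkn2c, which encodes an inhibitor of the cyclin D kinases, chr4:109658843-109659151 was listed in replicate 1 only, with a fold of 6.32. None of these 4 was listed in EV, and only 0.402% of all intervals on assembled chromosomes were.

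The immediate early entries were genes of the AP-1 family and zinc-finger factors, which serum switches on within minutes to hours. The interval at Junb, chr8:84979793-84980999 and 1045 bp upstream, had folds of 14.7 and 12.4. At Egr3, chr14:70074953-70075983 had folds of 14.9 and 14.9, at 1334 bp. Fos had an interval 8748 bp past its end with folds of 8.14 and 6.72, and one 18017 bp upstream in replicate 2 only with a fold of 7.37. Fosb had one 9775 bp upstream with low folds of 4.74 and 6.16. Jun had one 108501 bp upstream, inside Junos, with folds of 8.09 and 30.0. That one had pileups of 82 and 122 reads, on local backgrounds of 5.01 and 1.67 times genome-wide. A nearer one was listed in replicate 1 only with a fold of 7.72. The Klf4 interval lay 118670 bp upstream, with folds of 13.4 and 13.9. Of these 8, 6 were listed in both replicates and 0 in EV. Over all intervals on assembled chromosomes, 80.4% were in both and 0.402% were overlapped by EV, so these counts were near the general shares.

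A few further genes were picked, after their values were seen, from those beside the 61 intervals at or above the list median in both replicates. Id2 and Id3 encode inhibitors of basic helix-loop-helix factors. The interval 1965 bp upstream of Id2 had folds of 20.2 and 28.6, and Id3 had one on each side, 2211 bp past its end with 19.1 and 28.3 and 7904 bp upstream with 22.8 and 13.6. Beside Nr2f1, a nuclear receptor gene, the folds were 15.9 and 32.7. The interval 6912 bp upstream of Nr4a1, the gene of an early-response nuclear receptor, had 14.1 and 18.7.

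Most intervals were not far from genes. The median distance to the nearest gene of any kind was 5076 bp (quartiles 1558.5 and 11642.5), and to the nearest protein-coding gene 16037 bp (6145 and 42366). The nearest gene was a long non-coding RNA gene for 158 intervals, a protein-coding gene for 139, a pseudogene for 30 and a miRNA gene for 12. Where the strand of the nearest protein-coding gene was known, 143 intervals lay upstream of its start and 133 past its end. Of the 297 nearest protein-coding genes, 157 (52.9%) had an E2F1 interval at their own boundary, and so did 76 of the 122 (62.3%) within 10 kb, against 36.8% of all 21887 protein-coding genes.

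The share listed in both replicates was 60.5% for the 38 intervals within 2.5 kb of a protein-coding gene and 40.5% for the 79 at 30 to 100 kb, with intervals of 44.7 to 74.4% and 30.4 to 51.5% that overlap. Beyond 100 kb it was 52.4% of 42, so the shares did not fall steadily with distance. All 6 distance bins lay below the 80.4% of all intervals. Closest to the limit of the rule, the intervals at Lncpint (1040 bp), Mir22hg (1044 bp) and Junb (1045 bp) were kept. Their folds were 18.0 and 15.7, 6.999 in replicate 1 only, and 14.7 and 12.4. Just outside, those at Gm41131 (1000 bp), Gm34301 (981 bp) and the tRNA gene n-TTagt6 (954 bp) had folds of 7.51 and 12.6, 19.3 and 23.1, and 10.1 in replicate 2 only.

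**Figure D4:**
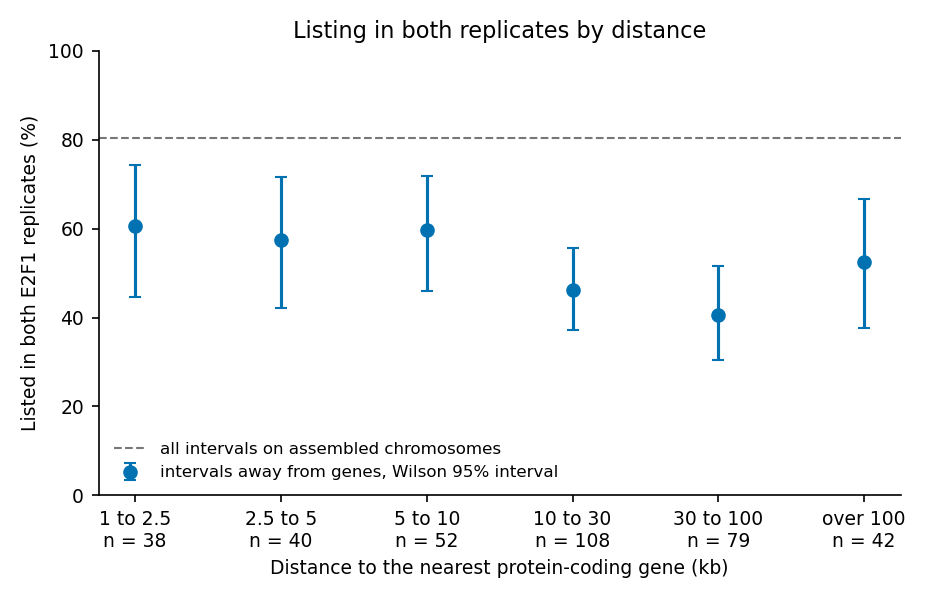
Share of intervals away from genes listed in both E2F1 replicates (y axis, percent, points with Wilson 95% intervals) by distance to the nearest protein-coding gene (x axis, kb, with the number of intervals per bin). All points lie below the dashed line, the 80.4% of all intervals on assembled chromosomes.

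The 5 intervals farthest from any gene had folds below the medians of their lists (9.19 and 11.3), and some lay on raised background. The farthest, chr9:49980660-49981037, was 154685 bp from a gene and had a fold of 6.15 from 17 reads in replicate 1 only. At chrX:11664230-11665022, 130789 bp away, the folds were 6.04 and 8.75, the latter above the 7.54 median of intervals away from genes in replicate 2. The third, chr14:124801575-124802215 beyond the start of Fgf14, had folds of 4.40 and 3.19 on 1460 and 975 reads and was also listed in EV replicate 1, with a fold of 2.47 on 976 reads. The fourth, chr3:5860446-5860729, had a fold of 1.89 over 36.7 times the genome-wide background. The fifth, chr1:124967839-124968090, had 5.79 from 16 reads, and these last ones were in replicate 2 only.

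Local background set a small group of intervals apart. At intervals away from genes the background at the summit was typically low, with a median of 1.46 times genome-wide in replicate 1 against 2.23 for all other intervals, and 1.47 against 1.52 in replicate 2. Yet 38 of 359 (10.6%, 7.81 to 14.2%) lay at 5 times or more in at least 1 replicate, against 2.59% of all intervals on assembled chromosomes. Of the 20 intervals overlapped by EV, 19 were among these 38. Without the intervals that had an EV peak or raised background, 158 of 320 (49.4%) were in both replicates, beside 6644 of 8162 (81.4%) among the others. The part of raised local background in the calls of the 38 was not tested.

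**Figure D5:**
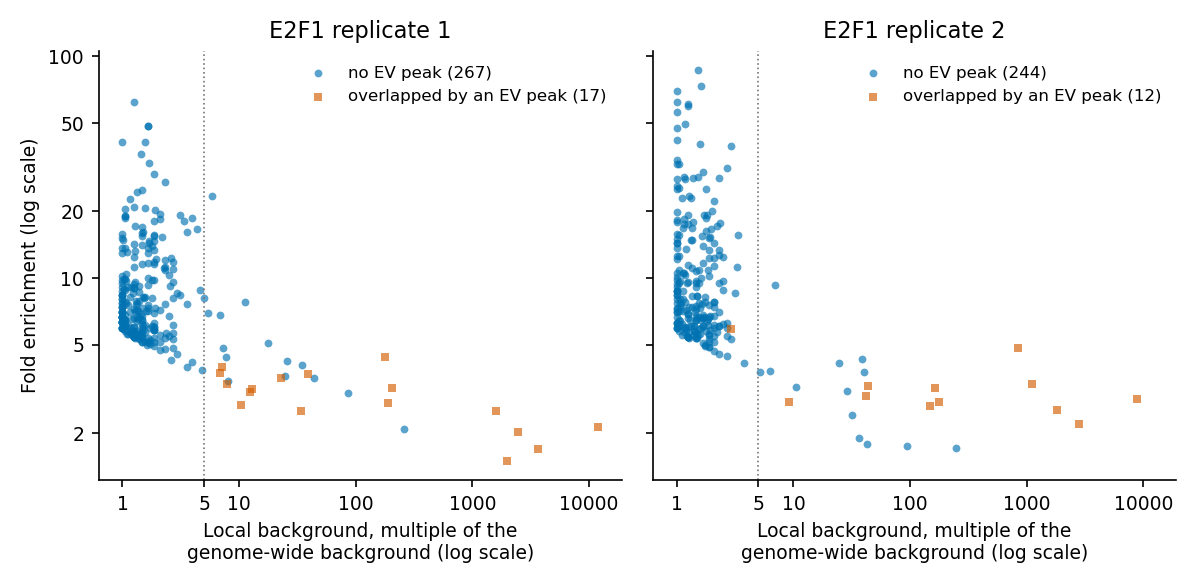
Authors' fold enrichment (y axis, log scale) against local background as a multiple of the genome-wide background (x axis, log scale) for intervals away from genes in E2F1 replicates 1 and 2; the dotted line marks 5 times. Squares are intervals overlapped by an EV peak, which run from 2.92 to 11947 times the background at folds of 1.50 to 5.92.

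The heaviest pileups of all were at these EV-overlapped intervals. At chr2:98666590-98667281, 1034918 bp from the nearest protein-coding gene, the E2F1 libraries had 47255 and 46531 reads with folds of 2.14 and 2.84. The EV libraries had 50424 and 22835 reads there, with folds of 1.92 and 1.95, so all 4 libraries were high. Beside it, chr2:98662246-98662814 had 5500 and 7573 reads in E2F1 and 8520 in EV replicate 1. Near the start of chromosome 9, chr9:3005719-3036418 was the widest interval of all, at 30700 bp, with 7389 and 6837 reads in E2F1 and 8441 in EV replicate 1. The neighbouring chr9:3000039-3004888 (4850 bp) had 9284, 8461 and 10067 reads in the same libraries. At chr14:19415747-19419446 (3700 bp) the E2F1 folds were 1.70 and 2.21, and the EV folds 1.58 and 1.26. In all 5 of these the folds of E2F1 were below 5, and EV replicate 1 had more reads than either E2F1 library, in a library with a higher genome-wide background.

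A minority of intervals away from genes lay in groups. With 3 or more taken as a run where neighbours were at most 100 kb apart, there were 15 runs with 62 of the 359 intervals (17.3%). The share of other E2F1 intervals in such runs was not computed, so grouping is not shown to be particular to intervals away from genes. EV peaks lay in 4 of the runs, and 3 runs had 3 or more intervals on raised background. The largest without EV peaks were the 5 intervals between the miRNA clusters on chromosome 8 and a group of 5 near Irf2bpl on chromosome 12. Of the group near Irf2bpl, replicate 1 listed 3 with folds of 5.51 to 11.2. Replicate 2 listed 4 with folds of 6.12 to 14.3, and 2 were in both. The 3 past Bahcc1 were all in both replicates, at 7.18 to 29.3 and 7.06 to 40.4, as were the 3 between Fosb and Ercc1, at 4.74 to 11.6 and 6.05 to 8.52. Near Bbc3, a gene of apoptosis, and Ccdc9, 3 intervals within 5500 bp had folds of 5.82 to 14.4 in replicate 1. On chromosome 2 a run of 4, of which replicate 2 listed 2, held folds of up to 18.5 and 19.3. The 3 spread from Ksr1 to Nf1 on chromosome 11 ranged from 5.52 to 10.4 over both replicates, with 2 listed in both.

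Some runs depended on 1 library or lay on raised background. The 3 intervals in and between Malat1 and Neat1, the genes of long non-coding RNAs of nuclear bodies, were listed in replicate 1 only, with folds of 4.28 to 7.12. The 4 upstream of Apba2 were listed in replicate 2 only, with folds of 5.42 to 6.47, and 1 of them had an EV peak. On chromosome 6, 7 intervals within 112923 bp all lay on a background of 17.7 to 43.6 times genome-wide. Replicate 1 listed all 7 with folds of 2.50 to 5.12, replicate 2 listed 5 with folds of 3.11 to 4.32, and EV replicate 2 listed 3. At the end of the X chromosome, 3 intervals around Mid1 and Erdr1 had folds of 2.68 to 4.39 in replicate 1, 1 was listed in replicate 2, and 2 had a peak in EV replicate 2. One of the pair, chrX:170012734-170016986 inside Erdr1, was among the 5 widest, at 4253 bp. The Y chromosome had 8 E2F1 intervals, all away from genes and in 1 run. Replicate 1 listed 8 of them with folds of 3.17 to 7.83, replicate 2 listed 1 with a fold of 9.31, EV replicate 1 listed 0 and EV replicate 2 listed 3, and 6 of the 8 lay on raised background.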

How the data were processed

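E2F1 ChIP-seq was measured in NIH/3T3 cells, and 4 peak lists (2 E2F1, 2 EV) in the narrowPeak layout were used, with groups and replicate numbers from the sample titles. The build is mm10, and FastQC, Trimmomatic, Bowtie2, MACS2 and ChIPseeker are named without versions or order, per the submitters' processing notes. The protocols in the labels describe RNA, so ChIP steps and the control given to the peak caller are not given in the sources used here. Per the files' values, the score that the authors deposited is the −log10 q-value times 10 without decimals. The authors' fold is a ratio of pileup to local background. Each peak also carries a deposited −log10 p and −log10 q. Peaks were taken as called per library.

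Peaks were merged at 1 bp of overlap and placed on RefSeq genes (GRCm38.p6). The value of an interval in a library is that of its peak with the highest −log10 p. Pileup and background were solved from fold and −log10 p with a pseudocount of 1. A whole pileup within 5% of the step resulted for 99.99% and 99.98% of the E2F1 peaks and 95.7% and 99.7% of the EV peaks (replicates 1 and 2). Scripts (Python 3.11.15, pandas 2.3.3, NumPy 2.4.6, SciPy 1.17.1) were tested on simulated data. The members and gene lists were chosen with earlier results of these data known. Named intervals are the 10 with the highest mean fold and no EV peak, the 5 highest-scoring with an EV peak, the 5 farthest, the 5 widest, 3 on each side of 1000 bp, those at listed genes (10 by the rule, the other 2 added so that none is left out) and the runs, of which 1 is not reported here. Gene strand came from the RefSeq promoter table and was missing for some genes. The lists hold only peaks past the caller's limit, and intervals on shares cover counting error only. Libraries were compared by the exact permutation test; shares and medians over intervals carry no test. Motif searches in the intervals, which need a genome, were not run.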

Additional observations from a re-analysis of the deposited data

How the results depend on the processing

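Of 49 alternatives over 9 results, 33 were labelled unchanged, 15 moved and 1 reversed. Unchanged meant within a fixed factor for counts, within the Wilson interval for shares and within the SD between replicates for medians. For peaks per library it meant only the same direction, so a fall from 1.45 to 0.31 was labelled unchanged. The number of intervals was 208 at more than 5000 bp, 571 with distance from protein-coding genes only and 106 with a score at or above the list median in at least 1 replicate, and 266 to 290 in single replicates. The share in both replicates was 39.6% with peak centres within 200 bp, 43.5% with reciprocal overlap of 50% and 73.6% at or above the median score. These alternatives were not computed for other intervals, so how the gap to the 80.4% of all intervals depends on peak strength was not tested. The share overlapped by EV was 10.4% at or above the median score and 3.34 to 6.55% without one library. The log2 difference in fold was -0.38 against intervals inside protein-coding genes, -0.19 with only intervals in both replicates, -0.31 with both sides so restricted (added after seeing the data) and -0.61 to -0.43 without one replicate. That in width was -0.36 and -0.27 for the first 2 of these, and -0.49 to -0.42 without one replicate. That in background was -0.61 to -0.05 without one replicate. The median distance was 16037 bp to protein-coding genes only. The number of peaks per library changed direction as a share of each list, at -63.7 percentage points, and ran from 0.31 to 2.60 without one library. With a score at or above the median of all E2F1 peaks it was 2.68. At more than 5000 bp it was 0.94 (exact p = 1.0), where EV replicate 2, with 196 peaks, had more than either E2F1 library, with 161 and 156. The replicate block gave 1.45 (exact p = 0.5 by sign flips, as low as 2 pairs can reach). With 1 value per library, whether the numbers pair the samples cannot be told. The causes were not tested. Motif alternatives were not run.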

Other observations

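Peaks on unplaced scaffolds and the mitochondrial chromosome had no place in the comparisons by gene distance. They numbered 8 and 9 in E2F1 replicates 1 and 2 and 4 and 20 in EV replicates 1 and 2, and a single scaffold, JH584304, held 6, 4, 3 and 17 of them. Their median folds were 2.48, 5.95, 2.63 and 2.23 in the same order, each within its own list.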
